A study of Homo sapiens with 6 samples.

Results

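Transcription factors of the lymphoid and haematopoietic lineages were examined by bulk RNA-seq in Jurkat, a human leukaemia cell line of T cell origin, after knockdown of SATB1. SATB1 binds AT-rich DNA and shapes chromatin loops in thymocytes. The 48 genes were chosen by name as Ikaros, BCL11, ID, ETS, MEF2, NFAT, GATA and related lineage factors, out of 58735 genes counted. Each symbol was found once among the Ensembl identifiers through GENCODE 29. The choice was made with earlier results of these data known, so shares of members set against all genes are a description only. Cells carried a lentiviral short hairpin RNA against SATB1 (shSATB1, 3 libraries) or a control hairpin (shCtrl, 3 libraries), and no other treatment is named for either group. A single vector was made for each group, so an effect of the hairpin sequence and an effect of SATB1 loss cannot be told apart. Separate cultures or infections are not stated for the 3 libraries of a group, and the spread behind each p-value may therefore be technical. In bulk RNA, fewer cells with a transcript and less of it per cell cannot be told apart.

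Lineage factors of this kind bind DNA and switch sets of genes on or off as blood progenitors choose a fate. Ikaros proteins are zinc finger factors that guide lymphoid development, and ETS proteins share a DNA-binding domain that reads a GGA core. E proteins activate lymphoid genes from E-box sites, and ID proteins, which lack a DNA-binding region, pair with E proteins and keep them off DNA. NFAT factors enter the nucleus when calcium activates the phosphatase calcineurin, and MEF2 factors respond to calcium as well. Several members are better known from other blood lineages, such as SPI1 in myeloid cells and GATA1 in red cell precursors.

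Libraries held between 26626539 and 28913623 reads in genes, and 3 reads correspond to 0.103 to 0.111 CPM (read counts scaled to library size), a floor that covers counting error only. SATB1 stood at 102, 100.2 and 104 CPM in the shSATB1 libraries, against 279, 259 and 259 CPM in the shCtrl libraries, lower in all 3 libraries of the knockdown (log2 fold change -1.38, SE 0.0611, adjusted p = 1.11e-08, edgeR quasi-likelihood test with Benjamini-Hochberg adjustment over 17520 genes, used for every adjusted p given here). All 12 T cell markers examined were measured, with a summed level of 3552 to 3829 CPM in shSATB1 and 3864 to 4317 CPM in shCtrl. Of them 1 rose (TRAC) and 6 fell (CD3D, CD2, CD5, ZAP70, TRBC1 and TRBC2). That is 58.3% called, against 30.9% of all tested genes. The median log2 fold change of the 12 was -0.18, against 0.01 over all tested genes. CD3E was not called (adjusted p = 0.486). It averaged 463 ± 13.8 CPM in shSATB1 and 484 ± 30.3 CPM in shCtrl (SD, n = 3, as for all such means). Of 8 B cell markers 3 passed the filter on low counts and the other 5 did not, and the list summed to 64.5 to 70.7 CPM in shSATB1 and 74.5 to 83.03 CPM in shCtrl, most of it from CD79A. The 8 myeloid markers summed to 4.34 to 5.61 CPM in shSATB1 and 3.95 to 4.801 CPM in shCtrl, with at most 1 read of LYZ and of MPO in a shSATB1 library and at most 4 and 2 in a shCtrl library. The 9 erythroid and megakaryocytic markers summed to 17.1 to 17.99 CPM in shSATB1 and 18.6 to 19.1 CPM in shCtrl, mostly from EPOR and ITGA2B, with HBA1, PF4 and GP9 at 0 in every library. HBB had 7, 4 and 5 reads in the shSATB1 libraries and 0 in each shCtrl library, and it did not pass the filter on low counts. The part of these marker levels in the results was not tested.

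Of the 48 lineage factors, 42 passed the filter on low counts and 6 did not. Of the 42 tested, 24 rose and 3 fell in shSATB1. Over all tested genes 14.3% rose and 16.6% fell, so rises made up 57.1% of the tested members and falls 7.14%. The median log2 fold change was 0.25 over the members and 0.01 over all tested genes. Of the 27 called members, 9 changed by at least 1.5-fold, each of them a rise, which is 21.4% of the members tested, against 7.07% of all tested genes in either direction. The groups did not overlap in 31 of the 42 members (73.8%), against 45.1% of all tested genes. Above 8 CPM, where counts are deeper, 18 of 32 members rose and 2 fell, against 17.7% and 25.3% of 10214 genes. Against a null of a 1.2-fold change in place of no change, 13 members rose and 1 fell, against 4.33% and 3.98% of all tested genes. The calls lost there were IKZF5, ID1, BCL6, GFI1, ELF1, ELF2, FLI1, ERG, MEF2A, NFATC1, KLF13, GATA1 and GATA2.

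**Figure D1:**
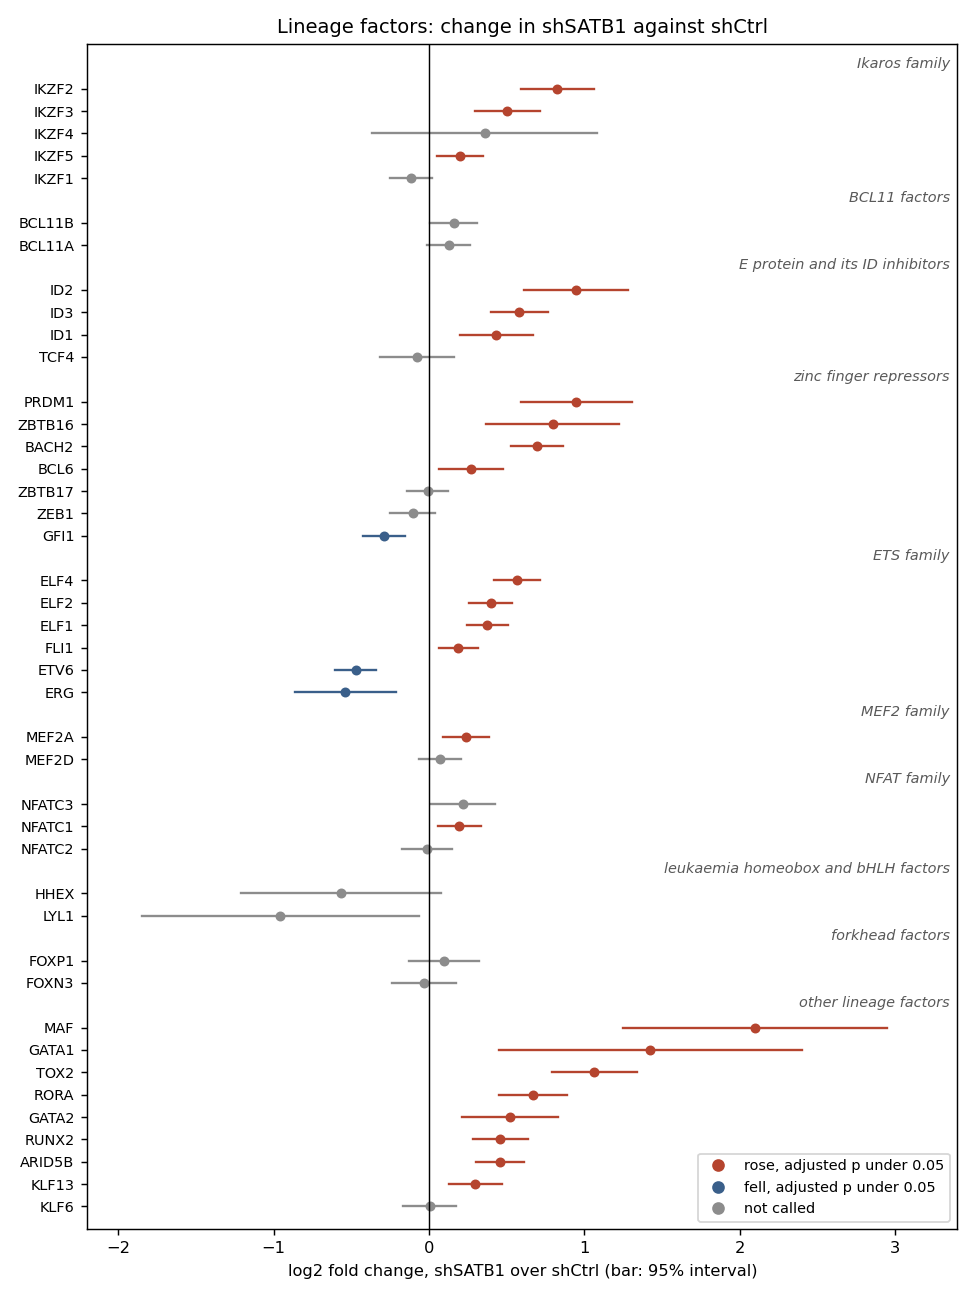
Log2 fold change of shSATB1 over shCtrl (x axis) for the 42 tested lineage factors, grouped by family, with 95% intervals as bars. Of these, 24 lie to the right as rises, 3 to the left as falls (GFI1, ETV6 and ERG), and 15 in grey were not called.

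Fold changes went with merged exon length over all genes, and the libraries differed in their share of reads outside annotated exons. The part of either in the members' changes was not tested beyond the models given here. That share was 11.7%, 10.9% and 11.6% in the shSATB1 libraries, against 10.2%, 7.77% and 9.36% in the shCtrl libraries. Among genes above 8 CPM the median log2 fold change was -0.21 in the shortest of 5 equal groups by length and 0.12 in the longest. Of the 32 members at that level, 14 were in the longest group, where 33.9% of all genes rose. There 7 of the 14 members rose and 0 fell, with a median log2 fold change of 0.21. The shortest group held ID1 and ID3, and both rose, while 5.92% of all genes there rose and 44.5% fell. With per-library offsets for length and GC content, 20 members rose and 7 fell, against 13.4% and 20.8% of all genes under that model. With the share of reads outside exons as a covariate, 11 members rose and 5 fell, against 4.9% and 7.2% of all genes. That share did not overlap between the groups, so this model cannot fully separate it from the hairpin. In that model 13 members were no longer called (IKZF3, IKZF5, BCL6, FLI1, ERG, MEF2A, NFATC1, RUNX2, KLF13, RORA, ARID5B, GATA1 and GATA2) and ZBTB16 turned, and with the offsets the calls lost were IKZF5, FLI1, MEF2A and NFATC1. Of the 13, NFATC1 and GATA2 had larger log2 fold changes with the covariate, 0.24 and 0.65, against 0.20 and 0.52 without it. With no filter on low counts IKZF5, BCL6, FLI1, NFATC1 and GATA1 were not called (adjusted p = 0.106, 0.113, 0.0698, 0.0849 and 0.0526), at log2 fold changes of 0.19, 0.26, 0.18, 0.18 and 1.41.

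Of the 27 calls, 9 held under every one of the 16 alternatives that gave them a value, namely the rises of IKZF2, ID2, ID3, BACH2, PRDM1, ELF4, MAF and TOX2 and the fall of ETV6. MAF had no value under 1 of them, the filter of 1 CPM in 3 libraries. With any 1 library left out, 19 calls held. Neither count was made over all called genes, so no background share stands beside them.

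**Figure D2:**
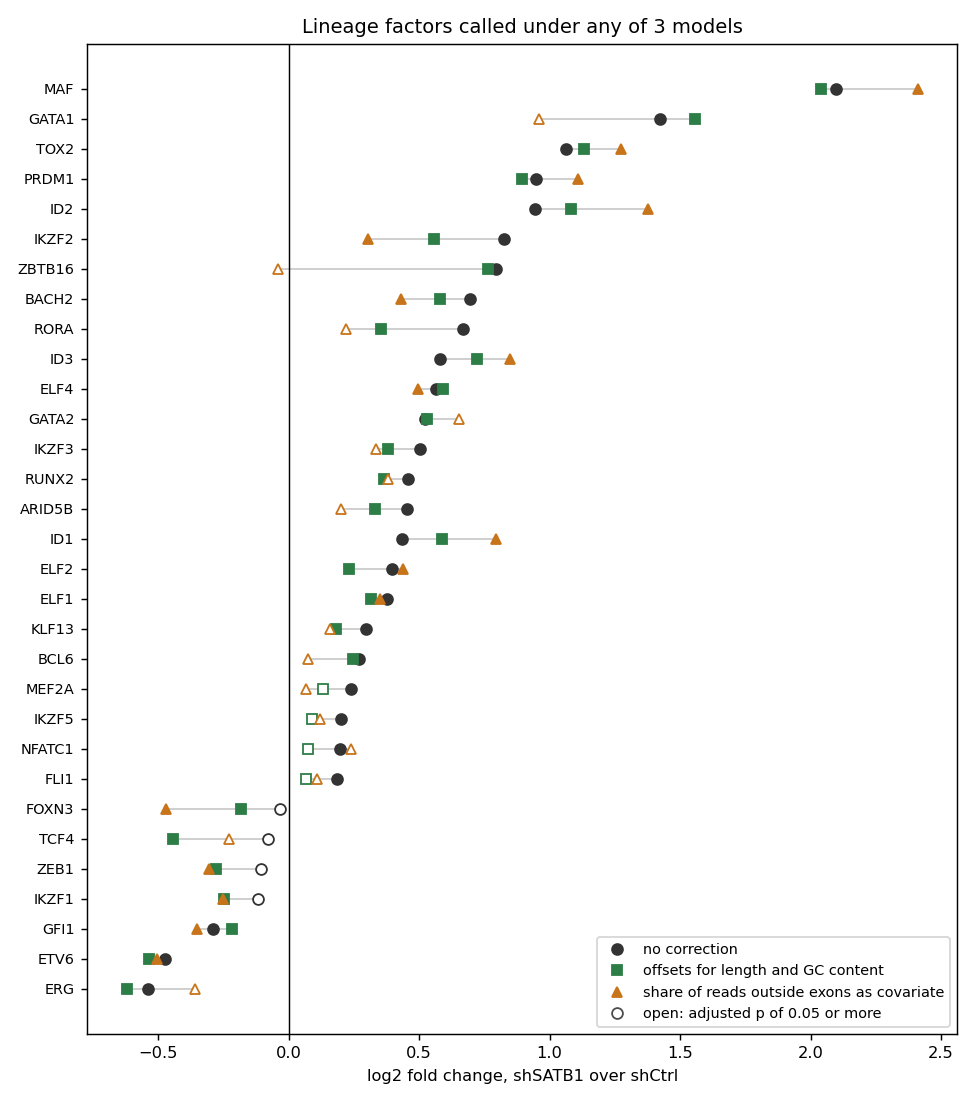
Log2 fold change of shSATB1 over shCtrl (x axis) for the 31 lineage factors called under any of 3 models, with no correction (circles), with offsets for length and GC content (squares) and with the share of reads outside exons as a covariate (triangles); open symbols are not called. ID2, TOX2, PRDM1 and MAF were called in all 3, at 0.90 (PRDM1, with offsets) to 2.41 (MAF, with the covariate), while ZBTB16 stood at -0.04 with the covariate.

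The ID inhibitors rose together, and none of the 3 E protein genes was called. ID1, ID2 and ID3 are shown first with their promoters, because all 3 rose and each has a single start in the RefSeq table (43 of the 48 members have an entry, GRCh38.p14). Over all tested genes 14.3% rose. ID4, which is not a member, had at most 1 read in a library and was not tested. The windows run from 250 bases before to 50 bases after the start, 5′ to 3′ on the strand of the gene. They are chr20:31605039-31605338 on the plus strand for ID1, chr2:8681806-8682105 on the plus strand for ID2 and chr1:23559452-23559751 on the minus strand for ID3. Capitals mark matches, on either strand, to the E-box CANNTG, the ETS core CGGAAG, the CCAAT box CCAAT or the letters TATAA.
ID1: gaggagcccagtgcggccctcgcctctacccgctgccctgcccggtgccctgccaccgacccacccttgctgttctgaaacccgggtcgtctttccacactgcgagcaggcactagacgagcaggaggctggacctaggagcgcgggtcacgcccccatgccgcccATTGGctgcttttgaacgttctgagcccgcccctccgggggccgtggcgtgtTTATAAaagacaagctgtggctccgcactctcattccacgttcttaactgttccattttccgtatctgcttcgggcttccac
ID2: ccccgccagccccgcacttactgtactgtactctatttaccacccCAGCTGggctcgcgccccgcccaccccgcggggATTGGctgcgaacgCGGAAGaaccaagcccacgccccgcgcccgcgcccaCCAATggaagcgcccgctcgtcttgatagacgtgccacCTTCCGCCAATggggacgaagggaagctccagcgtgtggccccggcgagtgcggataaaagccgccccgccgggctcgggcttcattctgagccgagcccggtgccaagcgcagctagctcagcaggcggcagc
ID3: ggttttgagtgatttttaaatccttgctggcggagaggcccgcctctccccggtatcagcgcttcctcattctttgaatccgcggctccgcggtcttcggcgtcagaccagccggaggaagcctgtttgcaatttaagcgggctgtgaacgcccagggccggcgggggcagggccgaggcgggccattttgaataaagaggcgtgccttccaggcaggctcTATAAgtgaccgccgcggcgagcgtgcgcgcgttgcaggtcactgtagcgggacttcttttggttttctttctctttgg
The letters TATAA lie at -31 in ID1 and at -29 in ID3, and 20.4% of all 35116 promoters in the table hold them. ID1 has a CCAAT match at -84 and ID2 has matches at -172, -122 and -78, against 34.6% of all promoters with any. An E-box is found in ID2, at -205, and none in the ID1 or ID3 window, while 68.7% of all promoters hold at least 1. ID2 also has ETS cores at -158 and -84, found in 19.5% of all promoters. The first ID1 TATAA match overlaps its own reverse match by 4 bases, and no match overlaps one of another motif. These motifs were chosen after the sequences were read, and a match is a description of the letters only.

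ID2, which is needed for innate lymphoid cells, stood at 7.099, 6.703 and 6.999 CPM in the shSATB1 libraries, against 2.73, 4.26 and 3.84 CPM in the shCtrl libraries. All 3 shSATB1 libraries were above all shCtrl libraries (log2 fold change 0.94, SE 0.156, adjusted p = 0.000575). The fold was 1.92, with a 95% interval of 1.52 to 2.42. ID3, which is induced by receptor signals in thymocytes, had 48.4, 59.3 and 55.6 CPM in the shSATB1 libraries, against 33.8, 39.5 and 35.8 CPM in the shCtrl libraries. Its rise was 1.496-fold (log2 fold change 0.58, SE 0.0855, adjusted p = 0.000242), again with no overlap. Levels of ID1, a BMP target in many cell types, were 23.05, 30.7 and 24.997 CPM in the shSATB1 libraries, against 18.3, 21.7 and 18.4 CPM in the shCtrl libraries. The shSATB1 libraries were all higher (log2 fold change 0.43, SE 0.109, adjusted p = 0.0083), and the gap between the groups was 1.37 CPM. Leaving out any 1 library kept all 3 calls, and ID1 was not called against the 1.2-fold null (adjusted p = 0.151).

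TCF4 (E2-2), the E protein of plasmacytoid dendritic cells, had 8.48, 9.21 and 9.62 CPM in the shSATB1 libraries, against 10.7, 9.16 and 8.94 CPM in the shCtrl libraries, and the groups overlapped (adjusted p = 0.632). With offsets for length and GC content it was called lower (log2 fold change -0.44, adjusted p = 0.00745). The other E protein genes, TCF3 and TCF12, averaged 416 ± 17.6 CPM in shSATB1 and 406 ± 4.37 CPM in shCtrl for TCF3 and 407 ± 9.62 CPM in shSATB1 and 376 ± 21.9 CPM in shCtrl for TCF12, and neither was called (adjusted p = 0.685 and 0.197). Per kilobase of merged exons, the summed level of ID1, ID2 and ID3 was 0.443, 0.535 and 0.4897 of the summed level of TCF3, TCF4 and TCF12 in the shSATB1 libraries, against 0.318, 0.398 and 0.343 in the shCtrl libraries. The ratios of the groups did not overlap. ID3 had the highest ID level per kilobase in both groups, 30.3 CPM per kilobase in shSATB1 and 20.3 in shCtrl, and ID2 the lowest, 3.14 and 1.64.

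Without strand information, reads of overlapping antisense genes cannot be told apart from those of the member. The antisense gene ID2-AS1 shares 38 exonic bases with ID2 and rose too, with 0.789 ± 0.0977 CPM in shSATB1 and 0.305 ± 0.192 CPM in shCtrl (log2 fold change 1.37, adjusted p = 0.0241). Of 6 partners of E and ID proteins tested outside the members (8 listed), 2 rose and 2 fell. That is 66.7% called, against 30.9% of all tested genes. TAL1, the bHLH oncogene that pairs with E proteins in T cell leukaemia, rose to 493 ± 7.595 CPM in shSATB1, against 313 ± 7.78 CPM in shCtrl (log2 fold change 0.65, SE 0.0582, adjusted p = 4.43e-06). LDB1, the adaptor of LMO complexes, averaged 156 ± 7.66 CPM in shSATB1 and 129.8 ± 3.999 CPM in shCtrl (log2 fold change 0.26, adjusted p = 0.00543). The falls were CBFA2T3, a corepressor of E proteins, with 81.6 ± 3.13 CPM in shSATB1 and 119 ± 4.64 CPM in shCtrl (adjusted p = 3.35e-05), and LMO1, with 4.45 ± 0.529 CPM in shSATB1 and 6.43 ± 0.562 CPM in shCtrl (adjusted p = 0.00949). With the covariate LDB1 and LMO1 were not called (log2 fold changes 0.23 and -0.52, adjusted p = 0.0698 and 0.157). LMO1 lost the call without shSATB1 replicate 1 (adjusted p = 0.0569) and without shCtrl replicate 3 (adjusted p = 0.054).

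In the Ikaros family IKZF2, IKZF3 and IKZF5 rose and IKZF1 and IKZF4 were not called. That is 60% called, against 30.9% of all tested genes. IKZF2 (Helios), a factor of regulatory T cells, had the largest rise in CPM of the 42 tested members, at 598, 510.3 and 592 CPM in the shSATB1 libraries, against 374, 258 and 328 CPM in the shCtrl libraries. Every shSATB1 library was above every shCtrl library by at least 137 CPM (log2 fold change 0.83, SE 0.109, adjusted p = 0.000109), and shCtrl 2, which has the lowest share of reads outside exons, was the lowest. In hg38, as annotated in GENCODE 29, the gene is IKZF2 (ENSG00000030419, chromosome 2, 212999691 to 213152427, minus strand). It had a log2 fold change of 0.31 with that share as a covariate and 0.56 with length and GC offsets, both called. IKZF3 (Aiolos), a factor of maturing B cells, stood at 19.4, 21.3 and 19.7 CPM in the shSATB1 libraries, against 16.1, 13.1 and 13.3 CPM in the shCtrl libraries. It rose 1.42-fold with no overlap (log2 fold change 0.50, SE 0.0966, adjusted p = 0.00157), and was not called under the covariate model (log2 fold change 0.33, adjusted p = 0.166).

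IKZF5 (Pegasus), a divergent member of the family, had 45.1, 43.5 and 48.3 CPM in the shSATB1 libraries, against 41.3, 39.4 and 38.6 CPM in the shCtrl libraries. The groups did not overlap, and the rise was small (log2 fold change 0.20, SE 0.06898, adjusted p = 0.0405). Its call was lost without shSATB1 replicate 1 or 3 and without shCtrl replicate 3 (adjusted p = 0.0967, 0.161 and 0.173), with DESeq2 (adjusted p = 0.0519) and with length and GC offsets (adjusted p = 0.271). IKZF1 (Ikaros), a tumour suppressor of lymphoid leukaemia, had 439, 437 and 444 CPM in the shSATB1 libraries, against 512, 455 and 465 CPM in the shCtrl libraries. All shSATB1 libraries were below all shCtrl libraries, and the difference did not pass (log2 fold change -0.12, adjusted p = 0.178). It passed as lower with length and GC offsets (adjusted p = 0.0012), under the covariate model (log2 fold change -0.25, adjusted p = 0.0119) and without shCtrl replicate 2 (adjusted p = 0.0375). IKZF4 (Eos), a partner of FOXP3 in regulatory T cells, averaged 0.732 ± 0.148 CPM in shSATB1 and 0.571 ± 0.155 CPM in shCtrl (adjusted p = 0.46).

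The order of the 2 most abundant Ikaros genes differed between the groups. Per kilobase, IKZF2 stood at 46.3 CPM per kilobase and IKZF1 at 40.3 in shSATB1, against 26.1 and 43.7 in shCtrl. The ratio of IKZF2 to IKZF1 was 1.22, 1.04 and 1.19 in the shSATB1 libraries, against 0.652, 0.506 and 0.6299 in the shCtrl libraries. IKZF2 was the higher of the pair in every shSATB1 library and the lower in every shCtrl library. It made up 48.8, 44.95 and 47.97% of the summed Ikaros level in the shSATB1 libraries, against 34.9, 29.2 and 34.1% in the shCtrl libraries.

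Neither BCL11 gene was called. BCL11B, which commits progenitors to the T lineage, had 218, 222 and 261 CPM in the shSATB1 libraries, against 209, 210.2 and 209 CPM in the shCtrl libraries (log2 fold change 0.16, adjusted p = 0.112). The shSATB1 libraries lay above the shCtrl libraries, and the call passed without shCtrl replicate 2 (adjusted p = 0.0469). BCL11A, the silencer of fetal globin, had 71.6, 66.2 and 69.4 CPM in the shSATB1 libraries, against 63.3, 60.6 and 65.99 CPM in the shCtrl libraries (adjusted p = 0.156), also without overlap, by a margin of 0.193 CPM. Its direction turned with length and GC offsets (log2 fold change -0.15).

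**Figure D3:**
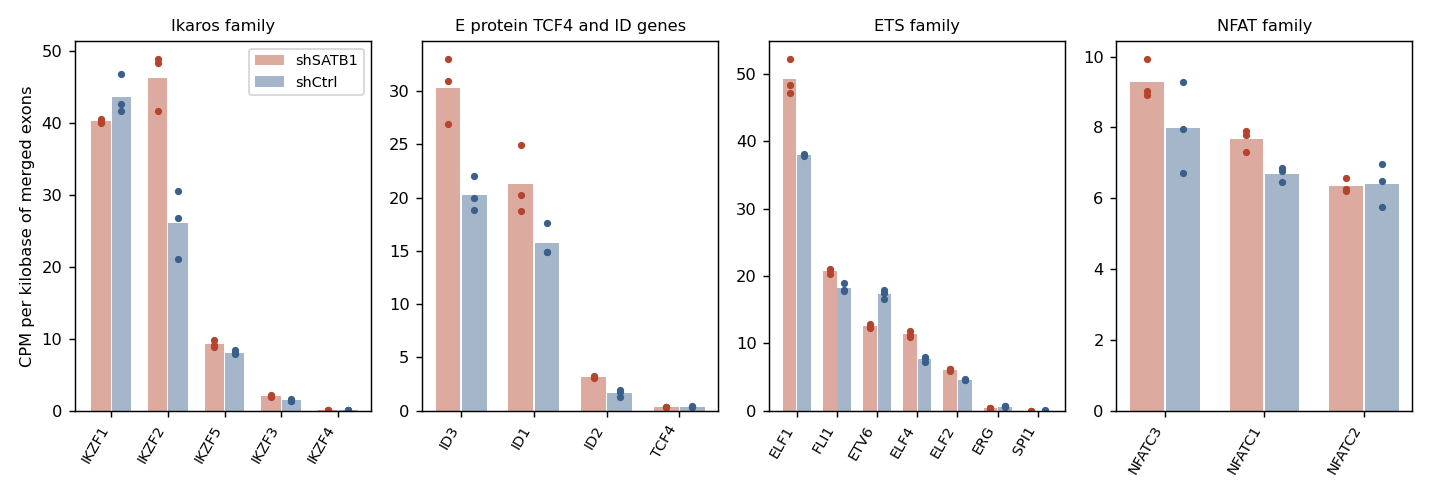
CPM per kilobase of merged exons (y axis, from 0) for 4 families, with bars as means and points as the 3 libraries of shSATB1 (red, left) and shCtrl (blue, right). IKZF2 is above IKZF1 in shSATB1 and below it in shCtrl, and among the ETS genes ELF1 is the highest bar and ETV6 is lower in shSATB1.

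All 6 tested ETS genes were called, with 4 rises and 2 falls, against 14.3% rises and 16.6% falls over all tested genes. ELF4, which restrains the division of cytotoxic T cells in mice, had 48.2, 51.3 and 46.9 CPM in the shSATB1 libraries, against 34.2, 31.3 and 33.4 CPM in the shCtrl libraries. The groups were 12.6 CPM apart (log2 fold change 0.57, SE 0.0702, adjusted p = 7.01e-05). ELF1, an activator in lymphoid cells, had 209.6, 205 and 226 CPM in the shSATB1 libraries, against 165, 165 and 164 CPM in the shCtrl libraries, with 3 nearly equal shCtrl values and all shSATB1 values above them (log2 fold change 0.38, SE 0.0609, adjusted p = 0.000504). ELF2 had 52.3, 50.4 and 52.5 CPM in the shSATB1 libraries, against 38.9, 40.7 and 38.3 CPM in the shCtrl libraries (log2 fold change 0.40, SE 0.0646, adjusted p = 0.000535). These paralogs of 1 subfamily were called with each library left out in turn. ELF1 and ELF2 were not called against the 1.2-fold null (adjusted p = 0.102 and 0.0777), and ELF4 was. FLI1, a factor of blood stem cells and megakaryocytes, had 171, 166 and 172 CPM in the shSATB1 libraries, against 155, 146 and 145 CPM in the shCtrl libraries. Its rise was 1.14-fold (adjusted p = 0.027) and was lost without shSATB1 replicate 1 or 3 and without shCtrl replicate 3 (adjusted p = 0.0998, 0.0929 and 0.142), under the covariate model (log2 fold change 0.11, adjusted p = 0.424) and with length and GC offsets (adjusted p = 0.261).

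ETV6, a repressor that is often part of leukaemia fusions, fell in shSATB1. The gene is ETV6 (ENSG00000139083, chromosome 12, 11649854 to 11895402, plus strand). It had 91.2, 87.4 and 86.5 CPM in the shSATB1 libraries, against 127, 123 and 118 CPM in the shCtrl libraries. The groups were 26.5 CPM apart (log2 fold change -0.47, SE 0.0606, adjusted p = 8.57e-05), and the call held under every alternative. ERG, a stem cell factor, had 3.24, 3.28 and 2.79 CPM in the shSATB1 libraries, against 4.05, 4.69 and 4.801 CPM in the shCtrl libraries. It fell without overlap (log2 fold change -0.54, SE 0.151, adjusted p = 0.015), and the call was lost without shSATB1 replicate 3 (adjusted p = 0.0785), without shCtrl replicate 3 (adjusted p = 0.0659) and under the covariate model (log2 fold change -0.36, adjusted p = 0.45). SPI1 (PU.1), the myeloid master factor, had 1 read, in shCtrl 3, and was not tested.

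ETV6 made up 12.9, 12.6 and 11.9% of the summed level per kilobase of the 7 ETS members in the shSATB1 libraries, against 20.4, 20.3 and 19.5% in the shCtrl libraries. The summed level of ELF1, ELF2 and ELF4 was 5.09, 5.26 and 5.66 times that of ETV6 in the shSATB1 libraries, against 2.81, 2.87 and 3.01 times in the shCtrl libraries. Of 10 other ETS genes tested (14 listed), 3 rose and 1 fell, or 40% called against 30.9% of all tested genes. Their median log2 fold change was 0.03. ETV5, a target of ERK and FGF signals, averaged 8.54 ± 0.765 CPM in shSATB1 and 5.23 ± 0.565 CPM in shCtrl (adjusted p = 0.000942). ETV3 averaged 66.3 ± 1.64 CPM in shSATB1 and 48.6 ± 3.95 CPM in shCtrl (adjusted p = 0.000413), and neither was called with the covariate (log2 fold changes 0.60 and 0.28, adjusted p = 0.0738 and 0.0568). ELK3 averaged 14.2 ± 1.12 CPM in shSATB1 and 10.9 ± 1.12 CPM in shCtrl (adjusted p = 0.0134) and lost the call without shSATB1 replicate 1 or 3 and without shCtrl replicate 3 (adjusted p = 0.0632, 0.0602 and 0.0847). ETS1, the most abundant of them in CPM, fell to 673 ± 18.6 CPM in shSATB1, against 833 ± 34.9 CPM in shCtrl (log2 fold change -0.31, SE 0.0612, adjusted p = 0.00195). ETS1 was not called against the 1.2-fold null (adjusted p = 0.374).

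Of 7 tested zinc finger repressors, 4 rose, 1 fell and 2 were not called. That is 71.4% called, against 30.9% of all tested genes. BACH2, which holds T cells back from effector fates, had 79.9, 77.4 and 82.3 CPM in the shSATB1 libraries, against 55.1, 44.7 and 48.4 CPM in the shCtrl libraries. The gap between the groups was 22.3 CPM (log2 fold change 0.69, SE 0.0768, adjusted p = 2.77e-05), and the rise was 1.62-fold with a 95% interval of 1.44 to 1.81. PRDM1 (BLIMP1), the repressor that drives terminal effector and plasma cell fates, had 3.71, 4.09 and 4.41 CPM in the shSATB1 libraries, against 2.12, 2.33 and 1.88 CPM in the shCtrl libraries. It rose 1.93-fold (log2 fold change 0.95, SE 0.166, adjusted p = 0.00083), although its level stayed under 5 CPM. BACH2 is known to repress PRDM1 in B cells, and in these libraries both were higher in shSATB1.

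BCL6, the repressor of follicular helper T cells that opposes PRDM1, had 12.997, 12.5 and 12.7 CPM in the shSATB1 libraries, against 11.4, 9.78 and 10.5 CPM in the shCtrl libraries. Its rise was 1.204-fold without overlap (adjusted p = 0.0466), and the call was lost without shSATB1 replicate 1, 2 or 3 (adjusted p = 0.13, 0.0776 and 0.105), without shCtrl replicate 2 or 3 (adjusted p = 0.113 and 0.127) and with DESeq2 (adjusted p = 0.0768). ZBTB16 (PLZF), the factor of innate-like T cells, had 8.34, 8.68 and 8.48 CPM in the shSATB1 libraries, against 6.42, 2.91 and 5.35 CPM in the shCtrl libraries. The shSATB1 values were close together, and the shCtrl values spread more than 2-fold (log2 fold change 0.79, SE 0.199, adjusted p = 0.00807). Its shCtrl values ran in the order of the share of reads outside exons, with shCtrl 2 lowest in both, and with that share as a covariate it was not called, at a log2 fold change of -0.04 (adjusted p = 0.943).

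GFI1, a repressor needed for the growth of early thymocytes in mice, was the fall of this group, at 42.6, 42.5 and 42.1 CPM in the shSATB1 libraries, against 52.96, 50.3 and 52.1 CPM in the shCtrl libraries. The groups did not overlap (log2 fold change -0.29, SE 0.0629, adjusted p = 0.00351), and the call held with each library left out. GFI1 was not called against the 1.2-fold null (adjusted p = 0.502). ZBTB17 (MIZ1), a partner of MYC, stood at 90.5, 98.6 and 95.4 CPM in the shSATB1 libraries, against 94.1, 98.7 and 93.7 CPM in the shCtrl libraries (adjusted p = 0.921). ZEB1, a repressor of cytokine genes in T cells, had 132, 131 and 132 CPM in the shSATB1 libraries, against 154, 130.1 and 140.1 CPM in the shCtrl libraries, and the groups overlapped (adjusted p = 0.264). It passed as lower with length and GC offsets (adjusted p = 0.00123), under the covariate model (log2 fold change -0.31, adjusted p = 0.00716) and without shCtrl replicate 2 (adjusted p = 0.0375). Its antisense partner ZEB1-AS1, which shares 366 exonic bases, fell, with 10.4 ± 0.105 CPM in shSATB1 and 14.2 ± 1.88 CPM in shCtrl (adjusted p = 0.00534). GFI1B, the red cell and platelet relative of GFI1, had 16, 4 and 3 reads in the shSATB1 libraries, against 2, 6 and 5 in the shCtrl libraries, and ZEB2 had 0, 3 and 1 reads in the shSATB1 libraries, against 0, 1 and 2 in the shCtrl libraries, so neither was tested.

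Of the 5 tested MEF2 and NFAT genes, MEF2A and NFATC1 rose and the other 3 were not called. That is 50% of the tested MEF2 and 33.3% of the tested NFAT members, against 30.9% of all tested genes. MEF2A had 86.7, 81.5 and 92.6 CPM in the shSATB1 libraries, against 77.2, 69.6 and 74.1 CPM in the shCtrl libraries. It rose 1.18-fold without overlap (adjusted p = 0.0167), and the call was lost without shSATB1 replicate 1 or 3 and without shCtrl replicate 3 (adjusted p = 0.0568, 0.0929 and 0.0662). Of its merged exons 11.1% overlap LYSMD4 on the other strand, which averaged 25.7 ± 1.78 CPM in shSATB1 and 27.1 ± 0.7996 CPM in shCtrl and was not called. MEF2D had 56.6, 56.6 and 54.1 CPM in the shSATB1 libraries, against 55.2, 51.3 and 53.1 CPM in the shCtrl libraries (adjusted p = 0.451), and MEF2C, the lymphoid and myeloid MEF2 gene, had 0 reads in every library. NFATC1 had 66.2, 70.6 and 71.6 CPM in the shSATB1 libraries, against 61.4, 62.1 and 58.6 CPM in the shCtrl libraries. Its rise was 1.14-fold (adjusted p = 0.0305) and was lost without shSATB1 replicate 2 or 3 and without shCtrl replicate 3 (adjusted p = 0.0742, 0.114 and 0.164).

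NFATC2, a main NFAT of mature T cells, had 54.4, 51.4 and 51.9 CPM in the shSATB1 libraries, against 57.6, 47.6 and 53.8 CPM in the shCtrl libraries (adjusted p = 0.917). The 95% interval of its fold was 0.886 to 1.11. NFATC3 had 87.4, 79.4 and 78.5 CPM in the shSATB1 libraries, against 81.6, 59.2 and 69.98 CPM in the shCtrl libraries (adjusted p = 0.0998). Its lowest value was in shCtrl 2, and it passed as higher without shCtrl replicate 1 (adjusted p = 0.000712), with the replicate block (adjusted p = 0.0194) and with no filter (adjusted p = 0.0357). Of its merged exons 15.7% overlap another gene on the same strand, and 31.8% overlap AC020978.5 on the other strand. AC020978.5 had 0 reads in every library. How reads in these stretches were assigned is not given in the sources used here.

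Genes that control calcineurin and NFAT were tested as a list of 16, of which 15 passed the filter, 2 rose and 5 fell. That is 46.7% called, against 30.9% of all tested genes. PPP3CA, a catalytic subunit of calcineurin, fell to 6.97 ± 0.204 CPM in shSATB1, against 16.2 ± 1.44 CPM in shCtrl (log2 fold change -1.22, adjusted p = 2.69e-06), and the call held under every alternative. PPP3R1, its regulatory subunit, averaged 27.6 ± 1.196 CPM in shSATB1 and 37.9 ± 2.42 CPM in shCtrl, and RCAN1, an inhibitor of calcineurin and itself an NFAT target, averaged 35.9 ± 0.412 CPM in shSATB1 and 50.98 ± 4.74 CPM in shCtrl. Both fell and were not called with the covariate (log2 fold changes -0.30 and -0.28, adjusted p = 0.0879 and 0.0748). The other falls were FKBP1A, at 237 ± 14.7 CPM in shSATB1 and 319 ± 35.004 CPM in shCtrl, and GSK3A, whose call was lost without shSATB1 replicate 3 (adjusted p = 0.0618), and the rises were CSNK1A1, at 227 ± 4.55 CPM in shSATB1 and 179 ± 12.7 CPM in shCtrl, and NFAT5, the factor of osmotic stress. NFAT5 averaged 110.0 ± 10.8 CPM in shSATB1 and 66.8 ± 22.3 CPM in shCtrl (adjusted p = 0.00614), and with the covariate its log2 fold change was -0.18. FKBP1A, GSK3A and CSNK1A1 were not called with the covariate (log2 fold changes -0.18, -0.09 and 0.20, adjusted p = 0.156, 0.631 and 0.0926). The catalytic paralog PPP3CB averaged 61.2 ± 2.86 CPM in shSATB1 and 58.2 ± 3.97 CPM in shCtrl and was not called (adjusted p = 0.452). FKBP1A, GSK3A, CSNK1A1 and PPP3CB were named after their values were seen.

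Among 8 tested genes that control MEF2 (10 listed) 4 rose and the other 4 were not called. That is 50% called, against 30.9% of all tested genes. HDAC9, a class IIa histone deacetylase that binds and represses MEF2, rose to 37.9 ± 2.85 CPM in shSATB1, against 21.7 ± 1.99 CPM in shCtrl (log2 fold change 0.81, adjusted p = 2.3e-05). HDAC7, the class IIa enzyme of thymocytes, averaged 196 ± 12.3 CPM in shSATB1 and 166 ± 6.18 CPM in shCtrl. SIK3, a kinase of class IIa deacetylases, averaged 58.2 ± 3.203 CPM in shSATB1 and 48.8 ± 4.22 CPM in shCtrl. MAPK7 (ERK5), a MEF2 kinase, averaged 26.2 ± 1.72 CPM in shSATB1 and 22.4 ± 0.157 CPM in shCtrl. The calls of HDAC7, SIK3 and MAPK7 were each lost with at least 2 single libraries left out, among them shCtrl replicate 3 (adjusted p = 0.0556, 0.0577 and 0.12) and shSATB1 replicate 2 (adjusted p = 0.0567, 0.085 and 0.124). They were also lost with the covariate (log2 fold changes 0.20, 0.10 and 0.27, adjusted p = 0.12, 0.623 and 0.203). With length and GC offsets HDAC7 and SIK3 were not called (adjusted p = 0.108 and 0.0884).

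**Figure D4:**
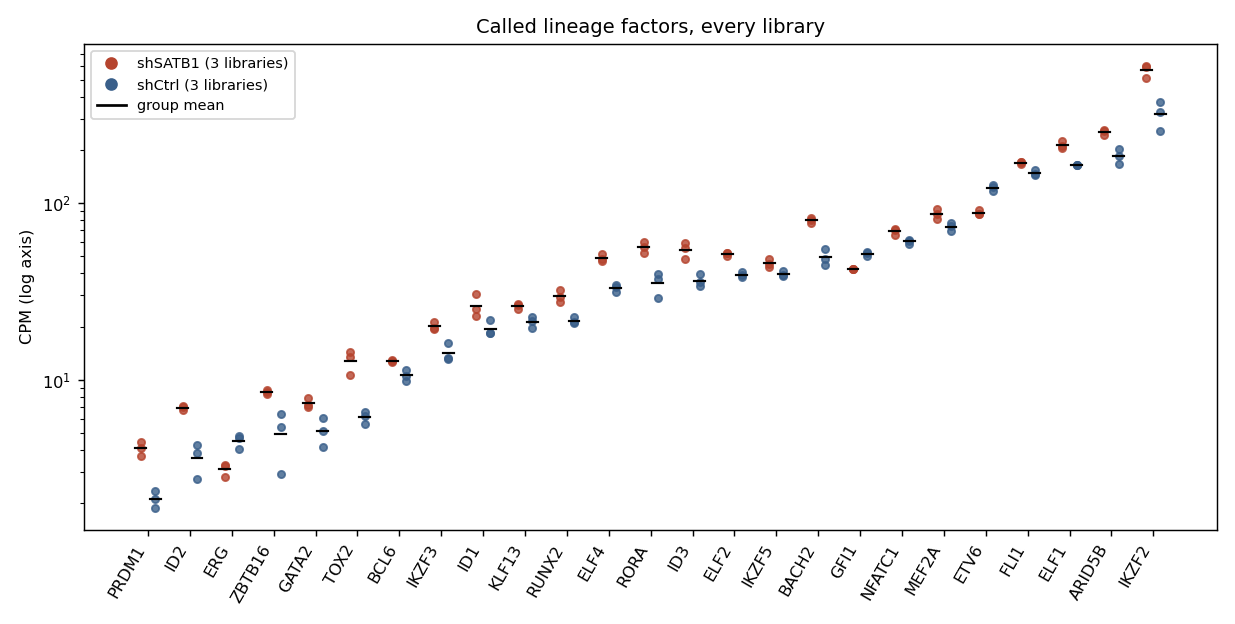
CPM on a log axis (y) for the 25 called lineage factors whose groups did not overlap and reached 2 CPM, each with its 3 shSATB1 libraries (red, left), its 3 shCtrl libraries (blue, right) and group means (lines). All but ERG, GFI1 and ETV6 lie higher in shSATB1, from PRDM1 near the bottom to IKZF2 at the top.

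Of the 9 remaining lineage factors, 8 rose and KLF6 was not called. That is 88.9% called, against 30.9% of all tested genes. TOX2, an HMG box factor of follicular helper and exhausted T cells, had 13.4, 14.4 and 10.6 CPM in the shSATB1 libraries, against 5.597, 6.22 and 6.57 CPM in the shCtrl libraries. It rose 2.09-fold (log2 fold change 1.06, SE 0.128, adjusted p = 5.69e-05), and the lowest shSATB1 value was 4.05 CPM above the highest shCtrl value. MAF, the factor of cytokine-producing helper T cells, had 0.655, 1.45 and 1.21 CPM in the shSATB1 libraries, against 0.287, 0.218 and 0.259 CPM in the shCtrl libraries, from 18, 41 and 35 reads in shSATB1 and 8, 6 and 7 reads in shCtrl. That is a 4.28-fold rise with a 95% interval of 2.38 to 7.71 (log2 fold change 2.10, SE 0.395, adjusted p = 0.00138), at a level that stayed under 2 CPM. RORA, a nuclear receptor of innate lymphoid cells, had 56.7, 51.97 and 59.96 CPM in the shSATB1 libraries, against 39.9, 28.99 and 37.3 CPM in the shCtrl libraries. The groups did not overlap, with shCtrl 2 lowest (log2 fold change 0.67, SE 0.102, adjusted p = 0.000315), and in the covariate model it was not called (log2 fold change 0.22, adjusted p = 0.203).

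ARID5B, a leukaemia risk gene and a partner in the TAL1 circuit, had 257, 242 and 259.6 CPM in the shSATB1 libraries, against 202, 168 and 184 CPM in the shCtrl libraries. All shSATB1 values were higher, by at least 39.8 CPM, and shCtrl 2 was again the lowest (log2 fold change 0.45, SE 0.072001, adjusted p = 0.00043). With the covariate its log2 fold change was 0.20 (adjusted p = 0.0742). RUNX2, the bone factor that also acts in early thymocytes, had 32.2, 29.2 and 27.6 CPM in the shSATB1 libraries, against 22.5, 21.2 and 20.98 CPM in the shCtrl libraries (log2 fold change 0.46, SE 0.0813, adjusted p = 0.000916; 0.38 and adjusted p = 0.0552 with the covariate). KLF13, a regulator of chemokine expression in T cells, had 25.1, 26.7 and 26.3 CPM in the shSATB1 libraries, against 22.5, 19.6 and 21.4 CPM in the shCtrl libraries. Its rise was 1.23-fold (adjusted p = 0.0121), and with the covariate it was not called (log2 fold change 0.16, adjusted p = 0.517).

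GATA2, a stem and progenitor factor, had 7.14, 7.02 and 7.86 CPM in the shSATB1 libraries, against 4.13, 5.13 and 6.09 CPM in the shCtrl libraries. It rose 1.44-fold (log2 fold change 0.52, SE 0.144, adjusted p = 0.0138), and lost the call without shSATB1 replicate 3 (adjusted p = 0.069). GATA1, the factor of red cells and megakaryocytes, had 0.473, 0.564 and 0.448 CPM in the shSATB1 libraries, against 0.287, 0.145 and 0.111 CPM in the shCtrl libraries, from at most 16 reads in a library. The shSATB1 values were all above the shCtrl values (adjusted p = 0.0285), and the call was lost without shSATB1 replicate 1, 2 or 3 (adjusted p = 0.0778, 0.094 and 0.0685) and without shCtrl replicate 2 or 3 (adjusted p = 0.0796 and 0.128). KLF6 had 28.03, 29.4 and 31.1 CPM in the shSATB1 libraries, against 31.9, 27.5 and 28.9 CPM in the shCtrl libraries (adjusted p = 0.978), with a 95% interval of 0.88998 to 1.13 for its fold.

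The forkhead and leukaemia factors gave no call. FOXP1, which keeps naive T cells quiescent, had 20.6, 17.7 and 21.2 CPM in the shSATB1 libraries, against 17.8, 21.3 and 16.5 CPM in the shCtrl libraries (adjusted p = 0.527), and its direction turned with length and GC offsets. FOXN3, a repressor tied to cell cycle checkpoints, had 151, 142 and 150.3 CPM in the shSATB1 libraries, against 174, 124 and 156 CPM in the shCtrl libraries (adjusted p = 0.821). Its lowest value was in shCtrl 2, without which it passed as lower (adjusted p = 0.0459), as it did under the covariate model (log2 fold change -0.47, adjusted p = 2.18e-05) and with length and GC offsets (adjusted p = 0.0385). LYL1, a bHLH oncogene related to TAL1, had 0.546, 0.318 and 0.552 CPM in the shSATB1 libraries, against 1.11, 1.24 and 0.406 CPM in the shCtrl libraries. It was not called (log2 fold change -0.96, adjusted p = 0.0974) and passed as lower without shCtrl replicate 3 (adjusted p = 0.0237) and with no filter (adjusted p = 0.0461). HHEX, a homeobox factor of early blood progenitors, had 0.5097, 1.09 and 1.21 CPM in the shSATB1 libraries, against 1.36, 1.49 and 1.33 CPM in the shCtrl libraries, lower in all shSATB1 libraries but not called (adjusted p = 0.171). TLX3 had 0 reads in every library, and TLX1 had 0 reads in the shSATB1 libraries against 1 read in each shCtrl library, under the floor of 3 reads.

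Across families, per kilobase of merged exons, the highest levels in shSATB1 were those of ELF1 (49.3 CPM per kilobase), IKZF2 (46.3), IKZF1 (40.3), ID3 (30.3), BCL11B (29.7) and ARID5B (27.6). In shCtrl the order was IKZF1 (43.7), ELF1 (37.97), BCL11B (26.7), IKZF2 (26.1), ZBTB17 (22.5), ID3 (20.3) and ARID5B (20.2). Libraries of neighbours in the order overlapped for ELF1 and IKZF2 and for ID3, BCL11B and ARID5B in shSATB1, and for IKZF2 with BCL11B and ZBTB17 and for ID3 and ARID5B in shCtrl. Merged length counts every annotated exon, so the level per kilobase is understated for genes with many alternative exons, such as TCF4, FOXP1 and BCL11A. Among the 10 families listed, the rises were spread over 7, and the families with no rise were the BCL11, forkhead and leukaemia homeobox and bHLH factors.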

How the data were processed

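RNA-seq of Jurkat cells gave 6 tables, 1 per library, of raw read counts per Ensembl gene, deposited by the authors without normalization or pooling. Per the submitters' processing notes, Trim Galore, STAR, HTSeq and hg38 were used. Tool versions, annotation release and strand setting: not given in the sources used here. The 5 closing lines of each table name no gene and stayed out of library sizes and tests; ambiguous reads made up 8.99% to 10.1% of reads and reads without a unique alignment 4.22% to 4.53%. Groups and replicate numbers come from the sample titles. Symbols, hg38 positions and merged exon lengths come from GENCODE 29, and promoters from RefSeq.

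The test was edgeR 4.0.16 (R 4.3.3) with TMM, filterByExpr at a minimum count of 10, a quasi-likelihood F test with group as the only term, and Benjamini-Hochberg adjustment over 17520 genes at 0.05. CPM values use TMM-adjusted library sizes. Alternatives were DESeq2 1.42.0, limma-voom (limma 3.58.1), other normalizations and filters, a replicate block, each library left out, a 1.2-fold null, a covariate (share of reads in no annotated exon) and spline offsets for length and GC content. The fit was tested on simulated data. Some genes of the related and marker lists are not reported here. The members, lists and alternatives were chosen with earlier results of these data known. Called members with at least 2 CPM and no overlap are given in every library, all other members by values or reads, and up to 4 called genes of a related list by size of change. Replicates differed by more than sampling noise (chi-square per degree of freedom 2.80 to 20.5).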

Additional observations from a re-analysis of the deposited data

How the results depend on the processing

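The counts of 24 risen and 3 fallen members, out of 2500 risen and 2910 fallen genes, stayed within 1.5 times under both other normalizations, DESeq2, limma-voom and both filters, though with no filter 5 calls were lost (IKZF5, BCL6, FLI1, NFATC1 and GATA1) and NFATC3 (higher) and LYL1 (lower) were gained. Against the 1.2-fold null 13 members rose and 1 fell (758 and 698 genes). With the share of reads outside exons as a covariate 11 rose and 5 fell (858 and 1262 genes), and with length and GC offsets 7 fell. With each library left out in turn, 17 to 25 members rose and 2 to 6 fell (1650 to 3218 and 1817 to 3562 genes). The lowest count of rises came without shSATB1 replicate 3, and 6 falls came without shCtrl replicate 2. The fall of SATB1 held throughout. The filter of 1 CPM in 3 libraries gave no value for MAF, GATA1, IKZF4 and LYL1, and DESeq2 none for GATA1.

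A replicate block gave 25 rises and 3 falls among members (2783 and 3120 genes), the gained rise being NFATC3. Deviations of same-numbered libraries correlated at 0.0798, 0.0712 and 0.00320, so the numbers were not taken to pair the libraries, and shSATB1 3 did not correlate best with its own number.

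Direction turned for 10 members, of which ZBTB16 was called. NFAT5 and NCOR1, which are not members and were called higher without the covariate, turned with it. With the covariate log2 fold changes were -0.0412 (ZBTB16), 0.0848 (ZBTB17), -0.00911 (MEF2D), -0.181 (NFATC3), -0.166 (KLF6), -0.179 (NFAT5) and -0.127 (NCOR1). With length and GC offsets they were -0.145 (BCL11A), -0.309 (FOXP1) and -0.0388 (KLF6). ZBTB17 was at 0.00222 with upper quartile normalization, ZBTB17 and NFATC2 at 0.00966 and 0.00651 with a filter of 1 CPM in 3 libraries, and KLF6 at -0.008499 with no filter. With single libraries left out the values ran between -0.0303 and 0.03001 (ZBTB17), -0.0801 and 0.0441 (NFATC2), -0.154 and 0.0725 (FOXN3), -0.0393 and 0.0587 (KLF6), -0.1301 and 0.00158 (TCF4). The cause of these changes was not tested. Depth limits MAF, GATA1, LYL1, HHEX, IKZF4 and GFI1B.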

Other observations

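Of 24 tested paralogs of the lineage factors outside the members (27 listed), 9 rose and 1 fell, with a median log2 fold change of 0.14, against 14.3% rises and 16.6% falls over all tested genes. ZBTB7B (ThPOK), a zinc finger factor of CD4 T cells, rose to 6.93 ± 0.1104 CPM in shSATB1, against 3.43 ± 0.651 CPM in shCtrl (SD, n = 3). ARID5A, an RNA-binding relative of ARID5B, averaged 34.3 ± 2.58 CPM in shSATB1 and 24.2 ± 1.33 CPM in shCtrl (log2 fold change 0.51, adjusted p = 0.000457, edgeR), and KLF2 averaged 60.4 ± 3.84 CPM in shSATB1 and 32.8 ± 3.67 CPM in shCtrl. MAFK, a small MAF protein that pairs with BACH factors, was the fall, with 62.2 ± 4.24 CPM in shSATB1 and 86.9 ± 5.29 CPM in shCtrl (log2 fold change -0.48, adjusted p = 0.000247). These 4 calls held under every alternative. BACH1, the paralog of BACH2, averaged 49.8 ± 2.297 CPM in shSATB1 and 39.7 ± 2.61 CPM in shCtrl and was not called with the share of reads outside exons as a covariate (log2 fold change 0.14, adjusted p = 0.475); it was named after its values were seen.

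Of 20 tested corepressors that zinc finger repressors recruit, 2 rose and 4 fell, or 30.0% called against 30.9% of all tested genes. NCOR1, a partner of nuclear receptors, averaged 315 ± 10.03 CPM in shSATB1 and 258 ± 43.9 CPM in shCtrl and was called higher (adjusted p = 0.0326, edgeR). The NCOR1 call was lost without shSATB1 replicate 1, 2 or 3 and without shCtrl replicate 3 (adjusted p = 0.107, 0.0718, 0.0989 and 0.0981), and its direction turned with the covariate. The deacetylase HDAC3 averaged 71.01 ± 3.53 CPM in shSATB1 and 88.3 ± 3.57 CPM in shCtrl, and RBBP7, a histone-binding subunit, 198 ± 1.09 CPM in shSATB1 and 244 ± 16.98 CPM in shCtrl, both falls that were not called with the covariate (log2 fold changes -0.18 and -0.13, adjusted p = 0.222 and 0.306). The calls of RCOR1 (higher) and MBD3 (lower) were lost without shSATB1 replicate 1 (adjusted p = 0.0961 and 0.107), without shSATB1 replicate 3 (adjusted p = 0.0593 and 0.0918) and without shCtrl replicate 3 (adjusted p = 0.0854 and 0.112).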
